A study of Mus musculus with 6 samples.

Results

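The MAGE (melanoma antigen) gene family was followed in whole testes of mice at postnatal day 5, through 9 members named by symbol. They are the type I genes Mageb4, Mageb16, Mageb18 and Mageb5 and the type II genes Maged1, Maged2, Magee1, Magee2 and Mageh1. All 9 were found among the 57170 gene identifiers of the deposited table. A further 24 identifiers of the same family, 9 of them type I pseudogenes, served as the family beyond the members. The members were listed with results of sKO against WT in view, so for that contrast their values are a description without a test. Testis RNA selected for poly(A) was sequenced in 6 libraries. The 2 WT libraries (WT-1 and WT-2) came from wild-type mice. The 4 sKO libraries (sKO-1 to sKO-4) came from mice with a conditional knockout of Mdm2 in germ cells that have not yet entered meiosis. The labels name neither the Cre driver, the Mdm2 allele nor the strain, and they do not say whether a library holds 1 animal or whether the controls carry a floxed allele or Cre. Mdm2 encodes the ubiquitin ligase that keeps the p53 protein at low levels. The labels also do not say that libraries of a group are separate animals, so p-values measure only the spread between these libraries.

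MAGE proteins share a conserved MAGE homology domain, through which many of them bind RING-type ubiquitin ligases and alter what these ligases modify. Type I genes, the Magea and Mageb groups of the mouse, lie mostly on the X chromosome, are largely restricted to germ cells and are known as cancer-testis antigens because tumours can switch them on. Type II genes, including the Maged, Magee and Mageh groups, necdin (Ndn), Magel2 and Nsmce3, are expressed in many tissues. In the neonatal testis the seminiferous cords hold spermatogonia, the mitotic germ cells, among Sertoli cells, the somatic nurse cells.

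All 9 members lie on chromosome X, and RefSeq (build GRCm38.p6) has a promoter window for each. A window runs from 250 bases before to 50 bases after a transcript start. The counts were made on mm39, so these coordinates belong to the windows and not to the counted reads. Of the 33 family identifiers, 22 matched a window by symbol. Methylation of CpG dinucleotides is a known means of silencing germline genes in somatic cells, and so 4 windows are printed to show how the CpG content of members with different patterns compares. Capitals mark each CG.
Mageb4, chrX:86256170-86256469, minus strand: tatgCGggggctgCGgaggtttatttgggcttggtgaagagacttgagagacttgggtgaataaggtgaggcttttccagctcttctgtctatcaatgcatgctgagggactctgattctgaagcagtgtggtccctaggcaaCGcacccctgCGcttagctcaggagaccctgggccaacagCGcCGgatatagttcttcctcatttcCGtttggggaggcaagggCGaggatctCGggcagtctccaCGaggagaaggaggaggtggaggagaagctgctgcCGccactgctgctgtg
Mageb16, chrX:79671386-79671685, minus strand: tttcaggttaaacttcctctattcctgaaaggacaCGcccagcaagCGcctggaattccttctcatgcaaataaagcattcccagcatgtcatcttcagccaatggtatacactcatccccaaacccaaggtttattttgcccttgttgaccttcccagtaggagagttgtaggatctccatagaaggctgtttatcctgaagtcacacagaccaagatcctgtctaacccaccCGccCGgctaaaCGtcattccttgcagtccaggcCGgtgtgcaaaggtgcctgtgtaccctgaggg
Mageb18, chrX:92599523-92599822, minus strand: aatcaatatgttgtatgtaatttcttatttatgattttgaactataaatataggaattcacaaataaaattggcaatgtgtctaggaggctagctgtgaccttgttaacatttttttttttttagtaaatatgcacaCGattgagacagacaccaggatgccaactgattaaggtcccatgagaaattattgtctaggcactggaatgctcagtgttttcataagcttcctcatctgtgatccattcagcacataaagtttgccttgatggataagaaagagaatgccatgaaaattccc
Maged1, chrX:94541976-94542275, minus strand: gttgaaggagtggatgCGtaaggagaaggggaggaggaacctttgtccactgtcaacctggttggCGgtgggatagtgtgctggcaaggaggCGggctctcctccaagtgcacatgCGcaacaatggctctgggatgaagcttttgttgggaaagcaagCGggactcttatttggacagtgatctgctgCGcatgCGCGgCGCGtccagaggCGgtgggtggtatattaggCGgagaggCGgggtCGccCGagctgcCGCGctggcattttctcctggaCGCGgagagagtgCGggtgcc
The window of Mageb4 held 11 CG dinucleotides, that of Mageb16 held 6, that of Mageb18 held 1 and that of Maged1 held 20. Over the 32851 windows of all RefSeq genes the median was 7. At least as many CG as in Maged1 were held by 26.5% of windows, and at least as many as in Mageb18 by 94.6%. Taking the first window listed for each gene, the 14 type I genes with a window had a median of 2 CG (range 0 to 20) and the 8 type II genes a median of 13 (range 8 to 25). Magea2, Magea8, Mageb4 and Mageb3 were the type I windows above 7, so the ranges of the types overlap. The Sp1-type GC box GGGCGG, searched on both strands, was in 7 of the 8 type II windows, in 2 of the 14 type I windows and in 35.7% of all windows. The TATA sequence TATAAA was in 3 type II windows, in 1 type I window, that of Mageb18, and in 13.6% of all windows. The Ets-type sequence CCGGAA was in the windows of Magea2 and Magea8, in no type II first window and in 14.9% of all windows. The CG inside CCGGAA and GGGCGG is counted among the CG dinucleotides too, and no methylation was measured in this series.

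**Figure D1:**
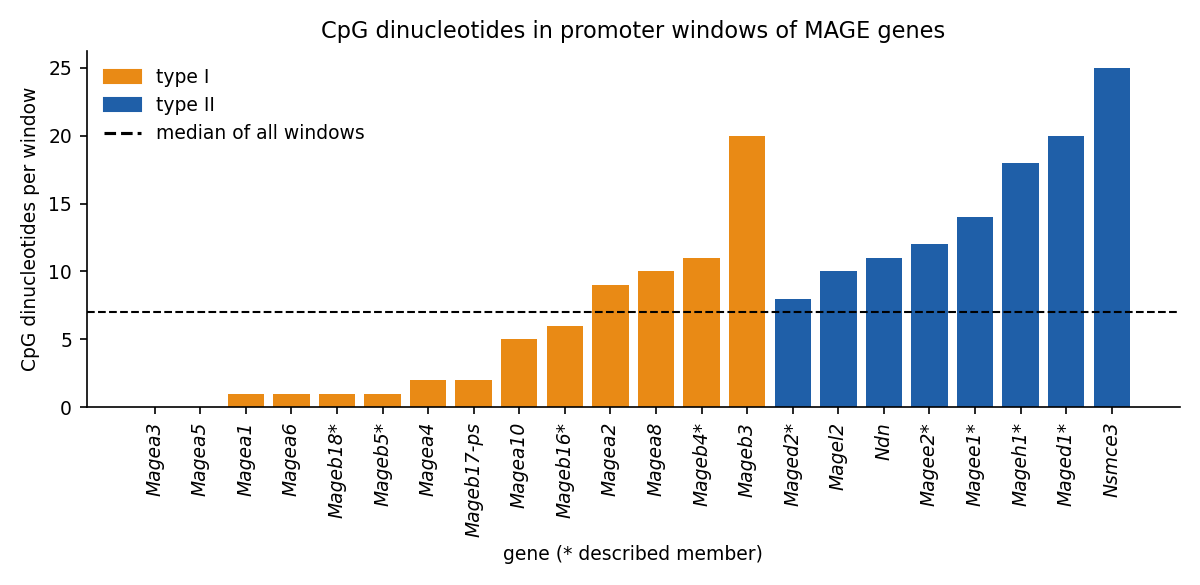
Number of CpG dinucleotides (y axis) in the first RefSeq promoter window of 300 bases of each MAGE gene (x axis, asterisks mark the described members), coloured by type, with a dashed line at 7, the median of all windows. All 8 type II genes stand above the line, while 10 of the 14 type I genes stand below it, and Magea3 and Magea5 have 0.

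Library totals ran from 17990837 to 18394437 expected counts, and 17707 genes passed the count filter. Levels are CPM, the counts scaled to the TMM-adjusted library size, and log2 fold changes are sKO over WT. Mdm2, the targeted gene, was at 67.2 and 76.0 CPM in WT and between 37.6 and 47.3 in sKO (−0.74, SE 0.12, edgeR adjusted p = 0.0241), all below WT; its transcripts outside a deleted part would still be counted. The Mdm2 call ended when WT-1 (0.171), WT-2 (0.111), sKO-2 (0.0561) or sKO-3 (0.0739) was left out and in the libraries numbered 1 and 2 alone (0.0804). Germ cell markers, listed with earlier results of these data known, describe the tissue. All 18 had counts, and 15 of the 17 tested were called lower (the remaining 2 did not pass), beside 2.30% of all genes tested. Their summed level was 680 to 947 CPM in WT and 116 to 208 CPM in sKO. Ddx4, a germ cell helicase, was at 99.4 CPM in WT and 20.1 in sKO (−2.31, SE 0.28, edgeR adjusted p = 0.0136). When WT-1 was left out, 0 of the germ cell markers were called (Ddx4 −1.98, adjusted p = 0.163), against 12 to 14 when any other library was. The 18 Sertoli cell markers summed to 7684 and 9056 CPM in WT and 8903 to 9956 in sKO. Their median log2 fold change was 0.16, with 1 called higher, Amh at 0.45 (edgeR adjusted p = 0.0429), 0 called lower, and Sox9 at 0.01. The markers moved both ways: 7 had all sKO libraries above both WT libraries, while Cldn11 (−0.44) and Dmrt1 (−0.45) had them below. Among all genes tested, 9.79% had them above and 13.3% below. The Amh call ended in 10 of 19 alternatives, among them each left-out library (0.0696 to 0.323), RLE size factors (0.0538), Sertoli library sizes (0.122) and the libraries numbered 1 and 2, alone (0.16) or with the replicate block (0.227). In such bulk samples fewer germ cells and less RNA per germ cell cannot be told apart. On the first principal component the libraries WT-1, sKO-1 and sKO-2 lay on one side and the remaining 3 on the other. The labels name no batch for these library subsets, called subset 1 and subset 2 in that order, and values within them stand beside the results. The subsets were drawn from the same values that are tested, so adjusted p-values with a term for them can be too small.

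Among all genes tested, 2.43% were called in either direction, 2.30% lower and 0.124% higher in sKO. By the ranges, 13.3% had all 4 sKO libraries below both WT libraries and 9.79% had them above. Of the 8 members that passed the count filter, Mageb4 and Mageb16 had them below and Mageh1 above; nothing is read from that count, because the contrast was known when the members were listed.

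Mageb4, an X-linked MAGE gene known from germ cells, was the most abundant of the type I members and the one with the largest difference. Its level was 94.1 CPM in WT-1 and 67.1 in WT-2, against 16.1, 9.16, 9.01 and 18.43 CPM in sKO-1 to sKO-4. All 4 sKO libraries were thus below both WT libraries. The means were 80.6 ± 19.1 CPM (SD, n = 2) and 13.2 ± 4.82 CPM (SD, n = 4), so that sKO stood at 16.3% of WT (log2 fold change −2.61, SE 0.30). Within subset 1 the log2 fold change was −2.92 and within subset 2 it was −2.30. Part of the Mageb4 transcript has a near copy. The pseudogene Mageb10-ps matches it at 97.7% identity over 1403 bases and overlaps it on the same strand in the annotation, and in 5 of the 6 libraries the Mageb4 count was not whole, as happens when reads are divided between genes. Summing the pair gave 111 and 80.0 CPM in WT and 9.88 to 20.9 CPM in sKO, that is −2.66 on the log2 scale (SE 0.30), close to that of Mageb4 alone.

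Mageb16 was lower by a smaller factor. It was at 10.7 CPM in WT-1 and 10.03 in WT-2, and at 4.39, 2.999, 3.12 and 3.41 CPM in sKO-1 to sKO-4. The groups did not overlap, and the sKO mean of 3.48 ± 0.633 CPM (SD, n = 4) was 33.6% of the WT mean of 10.4 ± 0.472 (SD, n = 2; log2 fold change −1.57, SE 0.22). The values within the subsets were close to each other, −1.55 and −1.63. A processed pseudogene identical to Mageb16 over 1093 bases took 1.13 expected counts in 1 library, and summing the copies gave −1.57.

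Mageb18, whose protein has been reported to bind the ubiquitin ligase LNX1, did not separate the groups. It was at 4.26 CPM in WT-1 and 2.76 in WT-2, and at 1.96, 3.37, 2.72 and 1.96 CPM in sKO-1 to sKO-4. The level in sKO-2 lay between those of the WT libraries, and the means were 3.51 ± 1.06 (SD, n = 2) and 2.50 ± 0.681 CPM (SD, n = 4; log2 fold change −0.49, SE 0.33). Without WT-1 the log2 fold change was −0.14, and without WT-2 it was −0.79. These are counts of 34 to 82 per library, all whole, and no other gene matched a Mageb18 transcript at 90% identity over 100 bases. Predicted genes do overlap Mageb18 on the opposite strand in the annotation. Strand use of the counts is not stated, so reads of those genes cannot be told apart from its own. Mageb5 had 0 counts in all 6 libraries. A floor of 3 counts allows it up to 0.156 to 0.173 CPM per library, counting error only. Its near-identical predicted copy (99.5% over 1360 bases) was at 0 as well, so the 0 does not come from reads given to that copy.

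**Figure D2:**
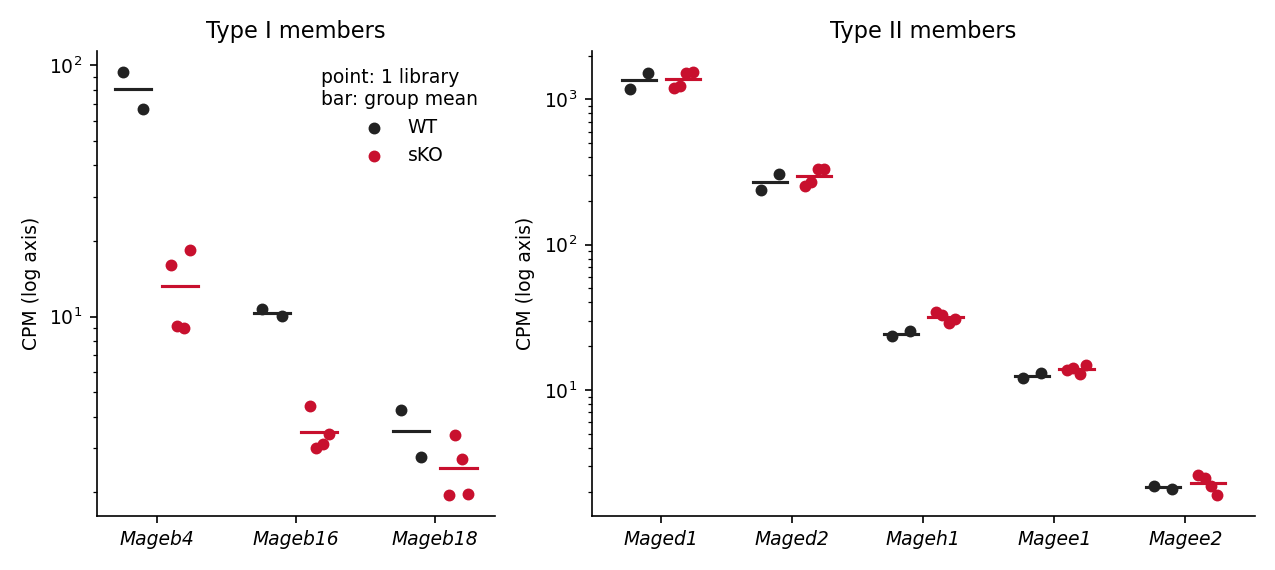
CPM of 8 members (y axes, logarithmic) in each library, with WT in black and sKO in red, points for libraries and bars for group means; Mageb5, at 0 throughout, is not drawn. The sKO points of Mageb4 (9.01 to 18.43 CPM) and Mageb16 (2.999 to 4.39) lie below both WT points, those of Mageb18 overlap with WT, and of the type II members only Mageh1 has all sKO points (28.9 to 34.1) above both WT points (23.5 and 25.4).

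The 3 measured type I members were also set beside the summed germ cell markers of the same library. That sum was at 0.2 of its WT level in sKO, so any gene that fell less, or not at all, rises in this ratio. Single markers of the list also fell by different amounts, with log2 fold changes from −2.825 to −1.594. Mageb4 amounted to 0.0994 and 0.0987 of that sum in the WT libraries and to 0.0699 to 0.0885 in the sKO libraries, all below WT. Mageb16 amounted to 0.0113 and 0.0148 in WT and to 0.0164 to 0.0268 in sKO, all above WT. Mageb18 amounted to 0.00450 and 0.00406 in WT and to 0.00944 to 0.0258 in sKO, again all above WT. Mageb4 made up less of the 4 type I members together in sKO, 59.0 to 77.4% of their summed CPM against 84.0 and 86.3% in WT. Which cells of the testis supply each of these transcripts was not tested.

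**Figure D3:**
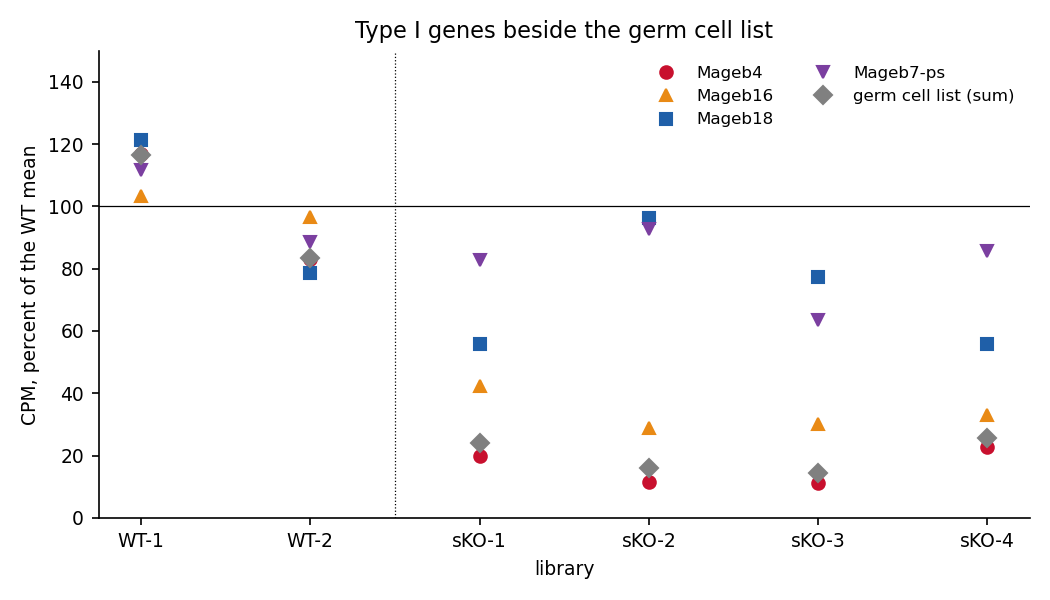
CPM of Mageb4, Mageb16, Mageb18 and the pseudogene Mageb7-ps, and the summed CPM of the germ cell markers, in each library (x axis) as a percent of the mean of the 2 WT libraries (y axis). In the sKO libraries Mageb4 lies just under the germ cell markers, Mageb16 lies above them, and Mageb18 and Mageb7-ps lie higher still.

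Maged1, also called NRAGE, which binds the neurotrophin receptor p75, was the most abundant member by far. It was at 1181 CPM in WT-1, 1512 in WT-2, while the sKO libraries in order had 1187, 1238, 1527 and 1543. The libraries with the 3 lower values were those of subset 1 and the 3 higher those of subset 2, whatever the genotype. The log2 fold change was 0.03 (SE 0.16), with 0.02 in subset 1 and 0.01 in subset 2. It was −0.14 when the Sertoli cell markers set the library sizes and −0.01 with plain column totals, so its sign depends on the scaling. Maged2, which is known for its part in renal salt handling before birth, had the same split. It was at 238 CPM in WT-1, with 254 and 269 in the sKO libraries of the same subset, and at 305 in WT-2, with 331 and 333 in those of subset 2 (log2 fold change 0.13, SE 0.16; −0.04 with Sertoli library sizes).

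Mageh1, a short type II gene, was the type II member with groups that did not overlap. It was at 23.5 CPM in WT-1 and 25.4 in WT-2, and in sKO-1 to sKO-4 at 34.1, 32.9, 28.9 and 30.8 CPM. All sKO libraries were above both WT libraries, with means of 24.4 ± 1.37 (SD, n = 2) and 31.7 ± 2.30 CPM (SD, n = 4). On the log2 scale the difference was 0.38 (SE 0.12), or 0.49 in subset 1 and 0.23 in subset 2, and 0.21 with Sertoli library sizes. Magee1, whose protein binds alpha-dystrobrevin, was at 12.0 and 13.1 CPM in WT and at 12.9 to 14.7 in sKO (0.15, SE 0.14). Magee2, its close relative, was at 2.18 and 2.09 CPM in WT and at 1.91 to 2.59 in sKO (0.10, SE 0.27). The groups overlapped for both, and both were below 0 with Sertoli library sizes (−0.02 and −0.07). That scaling moved the median of all genes from 0.03 to −0.14.

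Per kilobase of annotated exon (RPKM from these CPM and GENCODE M21 exon lengths), the order of levels in WT was Maged1, Maged2, Mageb4, Mageh1, Mageb16, Magee1, Mageb18, Magee2 and then Mageb5 at 0. Mean RPKM were 310 for Maged1, 83.7 for Maged2, 32.3 for Mageb4 and 17.3 for Mageh1. They were 5.33 for Mageb16, 3.53 for Magee1, 1.56 for Mageb18 and 0.921 for Magee2. No neighbours in that order overlapped between the 2 WT libraries. In sKO, Mageb4 stood behind Mageh1, at 5.28 RPKM (3.61 to 7.39) against 22.5 (20.5 to 24.2). It there overlapped Magee1, at 3.92 (3.65 to 4.15), which in turn stood above Mageb16, at 1.79 (1.54 to 2.26). Mageb18 (0.873 to 1.504) and Magee2 (0.823 to 1.12) overlapped in sKO.

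The median log2 fold change of the 3 measured type I members minus that of the 5 type II members was −1.70. Summed CPM of the 4 type I members were 109 and 79.9 in WT and 14.8 to 23.8 in sKO, while those of the 5 type II members were 1456 and 1858 in WT and 1491 to 1923 in sKO. The type I sum thus equalled 7.49% of the type II sum in WT-1 and 4.30% in WT-2, and 0.781 to 1.51% in the sKO libraries. Maged1 alone was 79.5 to 81.4% of the type II sum in every library.

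**Figure D4:**
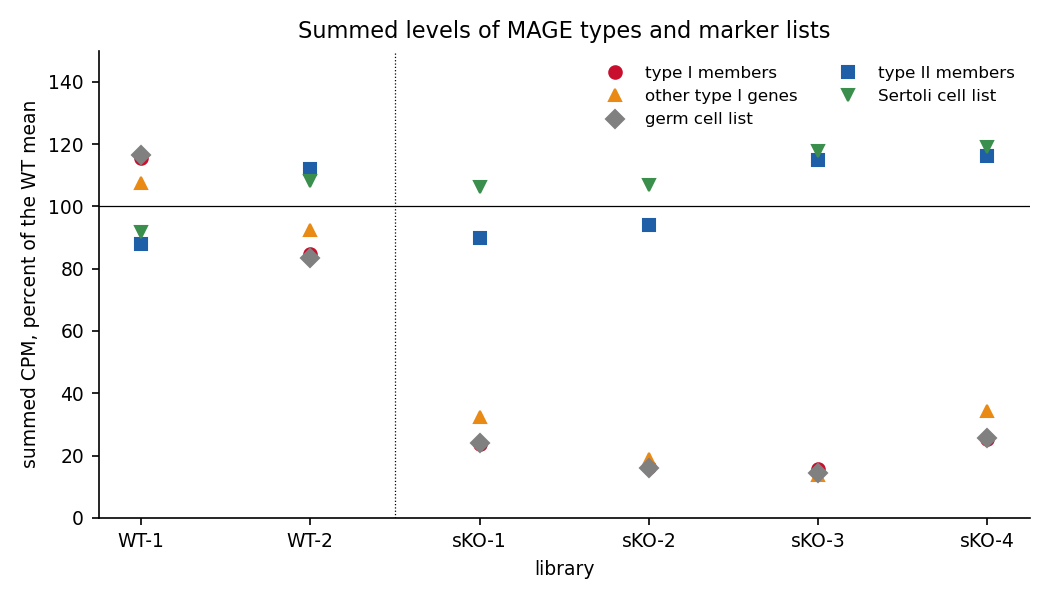
Summed CPM of the type I members, the other type I genes, the germ cell markers, the type II members and the Sertoli cell markers in each library (x axis), as a percent of the mean of the 2 WT libraries (y axis). In the sKO libraries the type I members lie close to the germ cell markers, while the type II members, at 1491 to 1923 CPM, overlap with their WT level of 1456 and 1858 CPM.

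The rest of the family was not chosen by its values and was tested in the fit over all genes. Of the 11 other type I genes 6 passed the count filter. All 6 had every sKO library below both WT libraries, as did 13.3% of all genes tested. A gene that passes such a filter through WT alone is bound to look lower, so the 5 that did not pass count too: Magea3 and Magea6 were lower in all sKO libraries at under 1 CPM, Magea4 overlapped, Mageb1 had counts in 2 sKO libraries only, and Magea1 was at 0. In edgeR 2.30% of all genes tested were called lower. Magea5, the only one of the 6 to pass, fell by 2.67 on the log2 scale (SE 0.39, edgeR adjusted p = 0.0195). Its mean was 4.60 ± 0.189 CPM in WT (SD, n = 2) and 0.715 ± 0.313 in sKO (SD, n = 4). Its call ended without WT-1 (0.186), WT-2 (0.0689) or sKO-2 (0.0629). Magea8 (−2.06, SE 0.42, edgeR adjusted p = 0.0544), Magea2 (−1.91, 0.0693), Mageb2 (−1.70, 0.130), Magea10 (−1.66, 0.212) and Mageb3 (−1.40, 0.369) did not pass. DESeq2 and limma-voom called 2 of the 6, Magea5 and Magea8 (Magea8 adjusted p 0.00111 and 0.0331), and Magea8 passed in 8 of its 19 alternatives. With a term for the subsets, which were drawn from these same values, 4 of the 6 passed, Magea2 among them. The median over the 6 was −1.80, beside 0.03 for all genes tested and −2.32 for the germ cell markers. Of the 6, Magea2 had 30.6 counts in each WT library and 4.15 to 11.1 in sKO. Mageb3 had 12.4 and 10.4 counts in WT and 2.07 to 8.44 in sKO. Both passed the count filter through WT alone, so nothing is read from their direction, although the counts and the median include them.

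Several of these genes are near copies of each other. Magea5 matches Magea8 at 96.4% identity over 1566 bases, and Mageb2 matches Mageb3 at 98% over 1546 bases, so the split of reads among them is uncertain. Summed over the 7 near-identical Magea identifiers, the level fell from 15.1 and 12.6 CPM in WT to 1.62 to 4.57 in sKO (log2 fold change −2.21, SE 0.38, edgeR adjusted p = 0.0337). The sum of Mageb1, Mageb2 and Mageb3 was 3.12 and 3.38 CPM in WT and 0.693 to 1.48 in sKO (−1.52, SE 0.34, edgeR adjusted p = 0.0727). Magea10, of which no near copy was found, was at 2.49 and 1.92 CPM in WT and 0.321 to 1.10 in sKO.

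Of the 9 type I pseudogenes 5 were tested and 2 were called lower, beside 2.30% of all genes tested. They were Mageb10-ps (−2.94, SE 0.38, edgeR adjusted p = 0.0144) and Mageb8-ps (−3.37, SE 0.64, edgeR adjusted p = 0.0420). The 4 others were at 0 in all libraries (3 of them) or had 1.13 expected counts in 1 sKO library (Mageb16-ps2). Mageb10-ps shares reads with the member Mageb4, as given above, so its call is not independent of a contrast that was already known. Mageb8-ps passed the filter through WT alone, with 19 and 36 counts there and at most 5 in any sKO library, and its call ended when any 1 of the 6 libraries was left out (adjusted p 0.0566 to 0.229). That of Mageb10-ps ended without WT-1 (0.176) or sKO-2 (0.0509). Mageb17-ps and Mageb6-ps, both under 1 CPM in WT and also let through the filter by WT alone, were not called. Mageb7-ps stood apart from them. It was at 13.7 and 10.9 CPM in WT and at 7.80 to 11.4 in sKO, where the groups overlapped (−0.30, SE 0.20, edgeR adjusted p = 0.619). A predicted gene matches Mageb7-ps at 91.4% identity over 525 bases, and in 3 libraries its count was not whole. How much of its level comes from shared reads was not tested.

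The 4 other type II genes were not called in either direction. Like Mageh1, Ndn and Nsmce3 had all sKO libraries above both WT libraries, as did 9.79% of all genes tested. Ndn, the imprinted gene of the growth suppressor necdin, was at 94.3 and 93.4 CPM in WT and 96.8 to 120 in sKO (0.23, SE 0.10, edgeR adjusted p = 0.408). Nsmce3, the MAGE subunit of the SMC5/6 genome-stability complex, was at 23.5 and 29.3 CPM in WT and 29.6 to 35.7 in sKO (0.33, SE 0.14, adjusted p = 0.394; 0.0269 with the subset term). Magel2, imprinted like Ndn, and Magef1, annotated as a pseudogene in the mouse, had log2 fold changes of 0.47 and 0.35 (adjusted p 0.609 and 0.649). None of the 4 passed in edgeR, 0 had an unadjusted p under 0.05, and DESeq2 and limma-voom called 0 as well. Tro, the trophinin gene of the Maged group, was not on the family list and is named after its values were seen; it was at 36.7 and 26.3 CPM in WT and 28.1 to 33.3 in sKO (−0.03, adjusted p = 0.969).

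**Figure D5:**
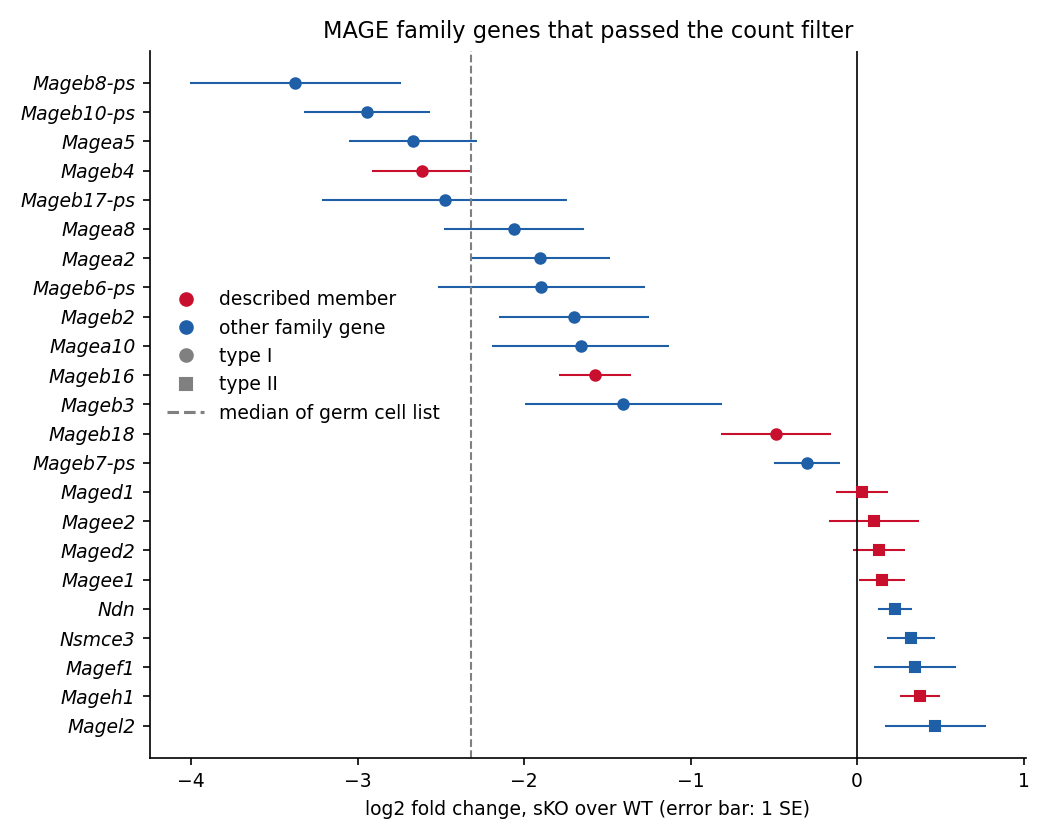
Log2 fold change of sKO over WT with 1 SE (x axis) for the 23 MAGE family genes that passed the count filter, with described members in red, other family genes in blue, circles for type I and squares for type II; the dashed line is the median of the germ cell markers, −2.32. All 14 type I genes lie below 0, Mageb18 and Mageb7-ps nearest to it. Magea2, Mageb3, Mageb6-ps, Mageb8-ps and Mageb17-ps passed the filter through WT alone. All 9 type II genes lie between 0.03 and 0.47, of which Maged1, Maged2, Magee1 and Magee2 turn negative with Sertoli library sizes.

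X-linked genes with reported spermatogonial expression are set beside the type I values, and whether other testis cells also make them was not tested. Their list was drawn up with earlier results of these data known, so it is a description and no independent support. Of the 18 tested genes of that list, 12 fell and 0 rose (median −2.33). The homeobox genes Rhox10 (0.173 to 0.428 CPM in sKO) and Rhox13 (0.289 to 0.636) passed the count filter through WT alone. Nothing is read from their direction, although the counts and the median include them. Among all genes tested, 2.30% were called lower and 0.124% higher. The called genes named next are those with the smallest adjusted p. Scml2, a chromatin regulator, fell by 1.88 on the log2 scale (SE 0.14, edgeR adjusted p = 0.00929). The nuclear export factor Nxf2 (−2.66), the deubiquitinase gene Usp26 (−2.36) and the meiotic gene Tex11 (−2.42) fell as well (edgeR adjusted p = 0.0110 each). All 12 calls ended without WT-1. The 6 that did not pass were Rhox13 (−1.84, adjusted p = 0.130), a homeobox gene, and Zfx, Usp9x, Rbmx, Nr0b1 and Dmrtc1a, at 0.01 to 0.26.

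Genes of proteins reported to bind MAGE proteins were not called. Of 21 listed partners 19 were tested, and edgeR, DESeq2 and limma-voom called 0 of them, with 1 higher and 1 lower at an unadjusted edgeR p under 0.05. The median was 0.04, beside 0.03 for all genes tested. The most abundant were Gnas, the stimulatory G protein subunit, at 815 ± 129 CPM in WT (SD, n = 2) and 910 ± 71.9 in sKO (SD, n = 4; 0.16, edgeR adjusted p = 0.697), and the ubiquitin ligase gene Huwe1 at 501 ± 14.7 and 434 ± 45.4 CPM (−0.21, adjusted p = 0.514). With Sertoli library sizes Gnas was at −0.01. Trim28, the best-known ligase partner of MAGE proteins, was at 360 CPM in WT and 356 in sKO. With the subset term 1 partner was higher, Pja2 (0.23, adjusted p = 0.0157), and 1 lower, Unc5a (−1.29, adjusted p = 0.0308), named after their values were seen.

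By the root mean square difference of centred log2 CPM over the 6 libraries, the genes most like Mageb4 among 13041 with a symbol and at least 1 CPM were Mael (0.09), Pramef12 (0.10), Mov10l1 (0.10), Sycp2 (0.11) and Tktl1 (0.11). Mael and Mov10l1 belong to the piRNA pathway, and Sycp2 encodes a protein of the meiotic chromosome axis. Mael, itself one of the germ cell markers used here, was at 68.6 and 51.9 CPM in WT and 7.16 to 14.6 in sKO. The genes most like Maged1 were Ccdc59 (0.01), Gigyf1 (0.02), Snrpd3 (0.02), Rhoa (0.02) and Numbl (0.02). Rhoa, a small GTPase made in most cells, was at 354 and 452 CPM in WT and 360 to 464 in sKO. These distances describe 6 libraries that share groups and subsets, and no test was made of them.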

How the data were processed

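Per the labels' protocols, messenger RNA of testis was captured with oligo dT beads. The values deposited by the authors are expected counts per gene (57170 identifiers, 6 libraries). The submitters' processing notes name fastp, STAR, RSEM and build mm39. No source used here states the annotation or strand use. A read that matches several similar genes is shared out among them by RSEM. Without strand, overlapping genes cannot be told apart. Symbols and exon lengths came from GENCODE M21 (GRCm38), which matched 51794 identifiers (90.6%).

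Libraries were grouped by title (2 WT, 4 sKO); the series' design text speaks of 3 per group. Between libraries of a group the chi-square per gene was 4.07 for sKO-3 and sKO-4 and 6.85 for sKO-1 and sKO-2. For every other pair within a group it was 20.3 to 24.8. None was merged, so the test counts as 4 separate libraries what behaved as 2 closer pairs. Counts were rounded, filtered with filterByExpr (minimum count 10) and scaled by TMM. The test was edgeR 4.0.16's quasi-likelihood test (R 4.3.3). It is two-sided, p-values were adjusted by Benjamini-Hochberg over the 17707 genes, and 0.05 was the threshold; SE is the log2 fold change divided by the root of F. In simulated counts of 17707 genes for this comparison it called 2 of 50 genes changed 1.5-fold and 29 of 50 changed 2-fold. At 4-fold it called 40 of 50 and at 8-fold 39 of 50. The simulated libraries were drawn independently, without the 2 closer pairs of the sKO libraries. Transcripts were compared with BLAST 2.17.0.

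Members and lists were chosen with earlier results of these data known. The rule names the members, every other tested MAGE gene, Mdm2, up to 4 called genes per list or the 2 most abundant, Ddx4, Dazl, Amh, Sox9 and the 5 genes nearest to the most abundant member of each type. Pseudogenes, Tro, Pja2, Unc5a, Trim28, Rhox10, Rhox13, Zfx, Usp9x, Rbmx, Nr0b1, Dmrtc1a, Dmrtb1 and MAGE genes under the filter were named after their values were seen. So were Cldn11 and Dmrt1. Dazl had a log2 fold change of −2.34 (edgeR adjusted p = 0.00929). The calls in the lists given next stand beside 2.30% called lower and 0.124% called higher among all genes tested. Dmrtb1, of the differentiating spermatogonia, was called lower but passed the count filter through WT alone (0.0578 to 1.04 CPM in sKO). Other marker lists gave medians of −1.495 (undifferentiated spermatogonia), −2.05 (differentiating spermatogonia), 0.26 (Leydig), −0.22 (myoid), 0.25 (endothelial) and −0.03 (macrophages), with 6, 6, 0, 1, 0 and 0 genes lower and 0 higher in edgeR (0 in both spermatogonia lists when WT-1 was left out); the 3 lists with no call also had 0 at an unadjusted p under 0.05. Alternatives were RLE and upper-quartile factors, Sertoli marker and plain library sizes, no filter or 1 CPM in 4 libraries, DESeq2 1.42.0, limma-voom (limma 3.58.1), left-out libraries, the replicate number as a block, a subset term and each subset alone; summing near copies was added after seeing the data.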

Additional observations from a re-analysis of the deposited data

How the results depend on the processing

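Mageb4, Mageb16 and Mageb18 stayed below 0 under all 19 alternatives (−2.92 to −2.30, −1.75 to −1.50 and −0.79 to −0.14), and Mageh1 above 0 (0.21 to 0.49). Maged1 ran from −0.16 to 0.19. The type I minus type II median ran from −1.86 to −1.62 when 1 library was left out. The counts of calls moved more than the folds. Over all genes, 22 higher and 408 lower became 112 and 685 with DESeq2, 9 and 641 with Sertoli library sizes, 880 and 1531 with the subset term, 282 and 946 in subset 1 alone, 267 higher in subset 2 alone, and 9 and 187 in the libraries numbered 1 and 2. Leaving out 1 library gave 2 to 7 higher and 1 to 225 lower genes, the fewest lower without WT-1. The 3 other MAGE genes called lower became 5 with Sertoli library sizes, 1 with 1 CPM in 4 libraries, 1 in the libraries numbered 1 and 2, 7 with the subset term (and 1 higher), and 0 to 3 with 1 library left out. X-linked spermatogonial genes called lower were 0 to 11 with 1 library left out, and with the subset term 1 was higher. Partners called were 1 higher and 1 lower with the subset term, 2 lower in subset 1 alone and 1 higher in subset 2 alone. A lone remaining WT library takes its spread from the sKO libraries. The cause of these moves was not tested.

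With the replicate number as a block over the 4 libraries numbered 1 and 2, 268 genes were lower and 3 other MAGE genes were lower. Without the block the same libraries gave 187 genes lower and 1 other MAGE gene lower. Deviations from the group means correlated at 0.42 over genes for number 1 and −0.44 for number 2. The deviations of 2 WT libraries mirror each other, and sKO-1 and sKO-2 lie in the same subset. These correlations therefore cannot decide whether the numbers pair the libraries. Gnas turned to −0.01 with Sertoli library sizes. Sox9, at 0.01, turned to −0.161 with Sertoli library sizes, −0.023 with plain totals, −0.001 with 1 CPM in 4 libraries, −0.044 when WT-1 was left out and −0.012 when sKO-4 was (0.038 when WT-2 was), −0.002 with the replicate block, −0.002 without it in the same libraries and −0.051 in subset 2 alone. Mageb18, Magee2, Magea2, Magea6, Magea10, Mageb2, Mageb3, Magel2, Mageb6-ps, Mageb8-ps and Mageb17-ps had at most 82 counts in a library. That limits the precision of their fold changes.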
